A study of Mus musculus with 3 samples.

Results

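The genes followed here are 7 globins, 3 embryonic (Hba-x, Hbb-y and Hbb-bh1) and 4 adult (Hba-a1, Hba-a2, Hbb-bs and Hbb-bt), read in single-cell libraries of the developing mouse palate. They were chosen by name, as the 7 embryonic and adult globins among the 32285 genes counted, and all 7 were detected in every library. The libraries were made from the palatal shelves, the outgrowths of the upper jaw that meet to form the palate, of wild-type C57BL/6J mouse embryos. Each of the embryonic days E13.5, E14.5 and E15.5 gave a single library, from 3 embryos that were pooled, and values for all stages are printed in that order. Tissue was dissociated with TrypLE and the cells were fixed in methanol before 10x Genomics droplet sequencing, in which a barcode marks a droplet and a unique molecular identifier (UMI) marks 1 captured RNA molecule. All barcodes in the matrices were used, with no filter on genes or doublets, because barcodes filled with globin RNA hold few other genes. With a single library for a stage nothing measures the spread between embryos, so no test was made, and every 95% interval covers counting error only.

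Haemoglobin is a tetramer of alpha-type and beta-type chains, each holding a haem group. In the mouse embryo the first red cells come from the yolk sac (primitive cells) and use Hba-x (zeta globin) with Hbb-bh1 and Hbb-y (the beta-h1 and epsilon-y globins) beside adult alpha globin. The later, definitive red cells made in the fetal liver use the adult chains almost alone, and C57BL/6 mice carry the adult beta genes Hbb-bs and Hbb-bt. Red cells reach palatal tissue through the circulation.

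The 7 genes lie in a pair of clusters (mm10). On the plus strand of chromosome 11, Hba-x (ENSMUSG00000055609) spans chr11:32276400-32278116, Hba-a1 (ENSMUSG00000069919) chr11:32283511-32284465 and Hba-a2 (ENSMUSG00000069917) chr11:32296489-32297298. On the minus strand of chromosome 7, Hbb-y (ENSMUSG00000052187) spans chr7:103851749-103853216, Hbb-bh1 (ENSMUSG00000052217) chr7:103841637-103843164, Hbb-bs (ENSMUSG00000052305) chr7:103826534-103828096 and Hbb-bt (ENSMUSG00000073940) chr7:103812524-103813996. All 7 are protein coding with 3 exons.

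How well a count can tell the genes apart depends on their sequences. Bases 322 to 381 of the 3 alpha-type coding sequences and bases 358 to 417 of the 4 beta-type ones (GENCODE M21 transcripts, counted from the A of the start codon) are shown because they hold the single coding difference of each adult pair. Capitals mark bases that differ from Hba-a1 or from Hbb-bs.
Hba-a1: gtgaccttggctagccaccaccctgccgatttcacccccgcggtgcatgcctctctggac
Hba-a2: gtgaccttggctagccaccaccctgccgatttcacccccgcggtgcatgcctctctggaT
Hba-x: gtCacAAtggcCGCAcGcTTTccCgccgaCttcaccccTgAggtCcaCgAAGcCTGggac
Hbb-bs: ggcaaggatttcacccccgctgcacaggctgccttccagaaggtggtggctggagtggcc
Hbb-bt: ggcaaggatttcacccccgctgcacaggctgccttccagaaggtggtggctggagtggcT
Hbb-y: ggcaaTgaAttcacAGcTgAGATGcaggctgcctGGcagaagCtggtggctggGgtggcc
Hbb-bh1: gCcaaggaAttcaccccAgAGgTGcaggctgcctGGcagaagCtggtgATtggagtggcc

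Over the whole coding sequence Hba-a1 and Hba-a2 differed at 1 of 426 bases and Hbb-bs and Hbb-bt at 1 of 441. The embryonic genes stand well apart from the adult ones, with 61.7% identity between Hba-x and Hba-a1 and 74.4% between Hbb-y and Hbb-bs. Of the 50-base windows of the transcript, 67.5% of those in Hba-a1 are also in Hba-a2, 65.8% of those in Hbb-bs are also in Hbb-bt, and 0 of those in Hbb-y are in Hbb-bh1. The split within each adult pair is therefore uncertain, since how reads that match both copies were treated is not given in the sources used here. In the other direction, 86.9% of the windows in Hba-a2 are in Hba-a1 and 58.3% of those in Hbb-bt are in Hbb-bs. The embryonic share does not rest on how adult UMIs fell within a pair. It would be raised if reads matching both copies went uncounted, as would any ratio of embryonic to adult levels. Ratios of alpha-type to beta-type UMIs could shift as well. Such a loss was not tested.

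The upstream sequences of Hbb-y, an embryonic gene, and Hba-a2, an adult one, are shown as the 100 bases before the RefSeq start (GRCm38.p6), since these windows lie mostly outside the gene spans given above. Capitals mark matches to 4 motifs, and each motif was searched on both strands. The longer TATA-type motif was ATATAA. The shorter one was ATAAA, which can overlap it. The CCAAT box and the CACCC box were searched by those letters. A motif for GATA factors, GATAA, was searched as well.
Hbb-y: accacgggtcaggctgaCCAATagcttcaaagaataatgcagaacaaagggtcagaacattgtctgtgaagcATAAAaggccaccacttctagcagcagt
Hba-a2: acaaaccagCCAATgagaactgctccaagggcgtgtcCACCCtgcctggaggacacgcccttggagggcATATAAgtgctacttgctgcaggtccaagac

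The Hbb-y window is chr7:103853208-103853307 on the minus strand and the Hba-a2 window chr11:32296392-32296491 on the plus strand. The longer TATA-type motif stood 31 bases before the Hba-a2 start. Hbb-y held only the shorter one, 28 bases before its start. The CACCC box was in the Hba-a2 window, 63 bases before the start, and not in that of Hbb-y. Both held a CCAAT box, at 83 bases (Hbb-y) and 91 bases (Hba-a2), and neither held the GATA motif. The matches do not separate embryonic from adult genes: the window of the embryonic Hba-x held both the longer TATA-type motif, 29 bases before its start, and the CACCC box, at 95 bases, and no CCAAT box. That window is not printed because it lies inside the Hba-x span given above. Among 32851 promoter windows of the same length, 3.74% held the longer and 17.5% the shorter TATA-type motif, 18.9% the CCAAT box, 27.2% the CACCC box and 8.55% the GATA motif. A match says only that these letters are present.

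The libraries held 4236, 2079 and 3113 barcodes, with median totals of 1735, 1614 and 1699 UMIs. Clustering without the globin genes gave mostly neuronal-like (2485) and neural progenitor-like (661) barcodes at E13.5, where mesenchymal-like ones numbered 543. In both later libraries mesenchymal-like barcodes were the most numerous, with 865 and 1363, so the E13.5 library differs in tissue makeup from the others. Whether tissue outside the palate entered the E13.5 library cannot be told from the labels. Across the libraries, 5 barcode sequences occurred in more than 1 library, and 0 of them were rich in globin.

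The 7 globins supplied 2.31%, 1.96% and 3.46% of all UMIs (265019, 103570 and 287986 UMIs). Embryonic genes made up 29.3% of these globin UMIs in the first library (95% interval 29.1 to 29.5), 1.44% in the second (1.37 to 1.52) and 0.668% in the last (0.638 to 0.698). Summed over a library, a change in the number of red cells and a change in globin RNA per red cell cannot be told apart. The E15.5 value rests largely on 1 barcode: without it the embryonic share was 0.218%, an alternative chosen after seeing the data.

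Hbb-y, the main embryonic beta globin, gave 5271, 193 and 92.9 UMIs per 1000000 UMIs (CPM). Against E13.5 it was 27.4-fold lower at E14.5 (25.7 to 29.1) and 56.8-fold lower at E15.5 (52.9 to 61.0). The counting intervals of the 3 libraries do not overlap. Of its 772 UMIs at E15.5, 414 came from 1 barcode, and without that barcode the fold between E13.5 and E15.5 was 122. In barcodes under 1% globin alone, the log2 ratio from E13.5 to E14.5 (of CPM plus 1) was -3.07, against -4.77 over all barcodes.

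Hba-x, the embryonic alpha-type chain, gave 1425, 89.0 and 138 CPM. Against E13.5 it was 16.0-fold lower a day later (14.6 to 17.6) and 10.3-fold lower at E15.5 (9.73 to 11.0). Of its 1147 UMIs at E15.5, 881 came from that same barcode, and only 32 barcodes held any. Without it the fold between E13.5 and E15.5 was 44.5, and the log2 ratio of E15.5 to E14.5 went from 0.63 to -1.45, so the order of the later stages turned. In barcodes under 1% globin this log2 ratio from E13.5 to E14.5 was -2.01, against -3.99 over all barcodes.

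Hbb-bh1, the globin of the earliest primitive cells, was the scarcest: 807 UMIs at E13.5 (70.3 CPM) and 4 at each later stage (0.756 and 0.481 CPM). The folds against E13.5 were 93.1 (36.2 to 343) and 146 (56.9 to 538), and in barcodes under 1% globin the log2 ratio between E13.5 and E14.5 was -2.90, against -5.34 over all. The 4 UMIs at E14.5 lay in 4 barcodes and the 4 at E15.5 in a single one.

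Among adult genes, Hbb-bs differed most between stages. It gave 3372, 7159 and 13579 CPM, and the E15.5 level was 4.03-fold that of E13.5 (3.98 to 4.07). Its partner Hbb-bt gave 1079, 1495 and 2530 CPM, with a fold of 2.34 between the same libraries (2.29 to 2.40). Both adult beta genes thus lay in the order of the stages.

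The adult alpha genes, which serve both embryonic and adult haemoglobin, differed less. Hba-a1 gave 7375, 5957 and 10162 CPM, and Hba-a2 gave 4508, 4671 and 8139 CPM. From E13.5 to E15.5 their folds were 1.38 (1.36 to 1.39) and 1.81 (1.78 to 1.83), under the 2-fold limit used for a call.

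By that limit, 3 of 7 globins were lower in the E14.5 than the E13.5 library, all 3 embryonic ones, and 1 was higher, Hbb-bs. Over 12124 genes of at least 5 CPM, 7.08% were 2-fold lower and 17.2% higher in that comparison (24.3% in either direction), and the median log2 ratio was 0.10. From E13.5 to E15.5 the same 3 were lower and 2 were higher, Hbb-bs and Hbb-bt, beside 8.1% and 18.3% of all genes (26.4% in either direction). From E14.5 to E15.5 Hbb-y passed, 2.07-fold lower (1.89 to 2.28), beside 0.767% lower and 0.841% higher of all genes (1.61% in either direction). Without the E15.5 barcode with the most embryonic UMIs Hbb-y was 4.47-fold lower and Hba-x passed as well, 2.78-fold lower. The 4 adult genes had log2 ratios of 0.76 (Hbb-bt), 0.77 (Hba-a1), 0.80 (Hba-a2) and 0.92 (Hbb-bs) in that last comparison, which placed them at the 98.2 to 99.0 percentile of all genes without passing the limit. Summed over barcodes under 1% globin alone, those log2 ratios were -0.11 (Hbb-bt), -0.17 (Hba-a1), -0.08 (Hba-a2) and 0.26 (Hbb-bs). That range is itself limited by globin content, so its ratios cannot show where a difference lies, here and for the embryonic genes above. These comparisons share libraries and are not independent. Leaving out the 2 barcodes with the most globin UMIs in each library, an alternative chosen after seeing the data, took the Hbb-bs ratio of E14.5 to E13.5 from 1.09 to 0.92, under the limit.

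**Figure D1:**
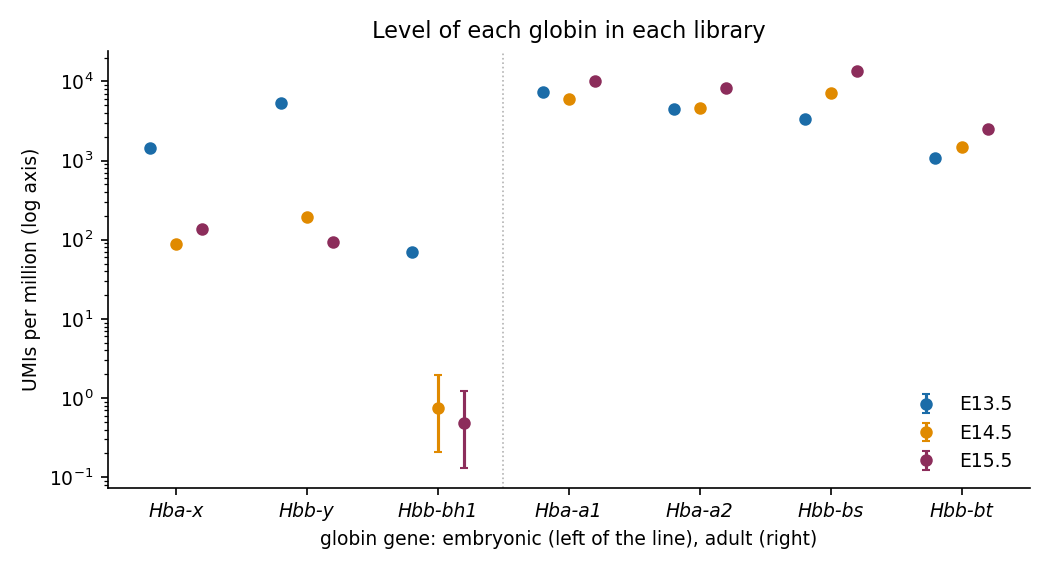
Level of each globin in UMIs per 1000000 UMIs (log axis) in the E13.5, E14.5 and E15.5 libraries, 1 point per library with its exact 95% Poisson interval, which is mostly smaller than the point. The 3 embryonic genes are highest at E13.5, and Hbb-bs goes from 3372 to 13579 over the stages.

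Divided by transcript length, in CPM per kilobase, the order at E13.5 was Hba-a1 (10550), Hbb-y (8326), Hba-a2 (8137), Hbb-bs (5370), Hba-x (1779), Hbb-bt (1534) and Hbb-bh1 (115). Hbb-y thus stood second there, above both adult beta genes. At E15.5 Hbb-bs was first (21622), followed by Hba-a2 (14690) and Hba-a1 (14538), and Hba-x (172) and Hbb-y (147) stood below Hbb-bt (3598). A UMI is counted once per molecule, so whether length bears on these counts was not tested, and this scaling put the embryonic share at 28.5%, 1.35% and 0.584%.

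Alpha-type UMIs outnumbered beta-type UMIs at every stage, by ratios of 1.36, 1.21 and 1.14. Within the alpha type, Hba-x made up 10.7% (10.6 to 10.9), 0.830% (0.757 to 0.908) and 0.748% (0.706 to 0.793). Within the beta type, Hbb-y made up 53.8% (53.5 to 54.1), 2.18% (2.05 to 2.31) and 0.573% (0.534 to 0.615). The embryonic part was thus larger among beta-type than alpha-type UMIs at E13.5, where primitive cells also use adult alpha chains. At E15.5 it was smaller, but that order rests on the single barcode named above: without it embryonic genes made up 0.175% of alpha-type UMIs (0.155 to 0.198) and 0.267% of beta-type UMIs (0.240 to 0.296).

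The theta-globin genes Hbq1a and Hbq1b, relatives in the alpha cluster, were rare. In barcodes with at least 20% globin UMIs Hbq1a had 17 UMIs over the 3 libraries and Hbq1b 14, all 14 at E13.5. Hbb-bh2 had 2, both at E13.5.

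Globin RNA was found in nearly all barcodes, but it was concentrated in few. At least 1 globin UMI was present in 3895, 1944 and 2950 barcodes (the last 2 being 93.5% and 94.8%), while the median barcode had 0.212%, 0.331% and 0.370% globin. Barcodes with at least 20% globin UMIs, called the red-cell range here, numbered 116 (2.74%, exact interval 2.27 to 3.28), 43 (2.07%, 1.50 to 2.78) and 107 (3.44%, 2.83 to 4.14). They held 77.3%, 61.1% and 85.2% of all globin UMIs. This is a range on a score and not a cell type. The barcodes nearest to the limit had 19.6% and 20.5% globin in the first library, 17.9% and 20.3% in the second, and 19.8% and 20.8% in the last.

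Barcodes lay at every level between the extremes. The fullest bin, from 0.1 to 0.5% globin, held 60.6%, 55.4% and 54.5% of barcodes. The bin from 5 to 20% held 0.873%, 1.92% and 0.964%, the next one up, to 50%, held 0.873%, 0.481% and 0.514%, and 1.86%, 1.59% and 2.92% had 50% and over. Single barcodes carried much: the richest held 13189, 4914 and 20253 globin UMIs, or 4.98%, 4.74% and 7.03% of the library's. The one at E13.5 had 39348 UMIs in all, mostly of other genes, while the one at E15.5 had 20923 UMIs, nearly all of them globin.

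**Figure D2:**
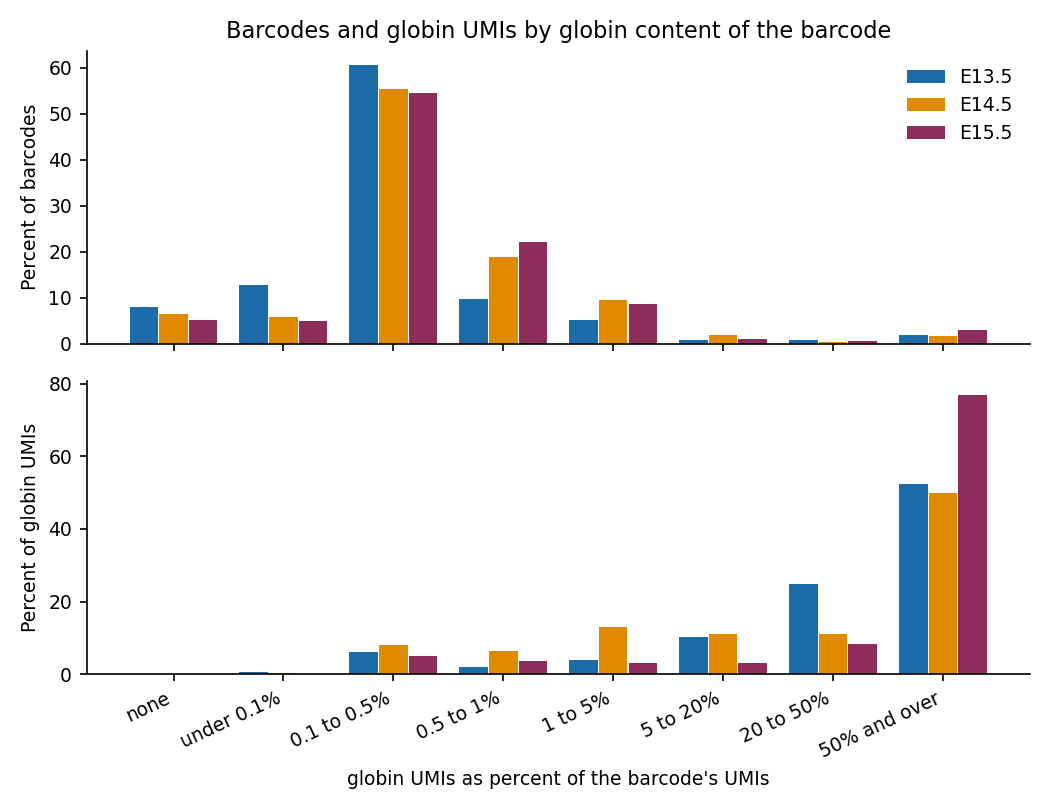
Bars give the percent of barcodes (top) and of globin UMIs (bottom) in each bin of globin content, for the 3 libraries. Most barcodes hold 0.1 to 0.5% globin, while barcodes with 50% and over hold 52.4%, 49.9% and 76.8% of the globin UMIs, in stage order.

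Within the red-cell range the barcodes fell into separate classes by their embryonic share. At E13.5, 78 of 116 barcodes had at least 10% of their globin UMIs from embryonic genes (embryonic-rich, 67.2%, 57.9 to 75.7), 34 had under 1% (adult-type) and 4 lay between (intermediate). The highest adult-type barcode had 0.943% and the lowest embryonic-rich one 11.7%, with the 4 intermediate ones at 1.43 to 2.86%. These limits were set after the values were seen. Embryonic-rich barcodes numbered 3 of 43 at E14.5 (6.98%, 1.46 to 19.1) and 4 of 107 at E15.5 (3.74%, 1.03 to 9.30), and adult-type ones 40 and 102. No embryonic UMI at all was found in 13, 36 and 101 red-cell-range barcodes.

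**Figure D3:**
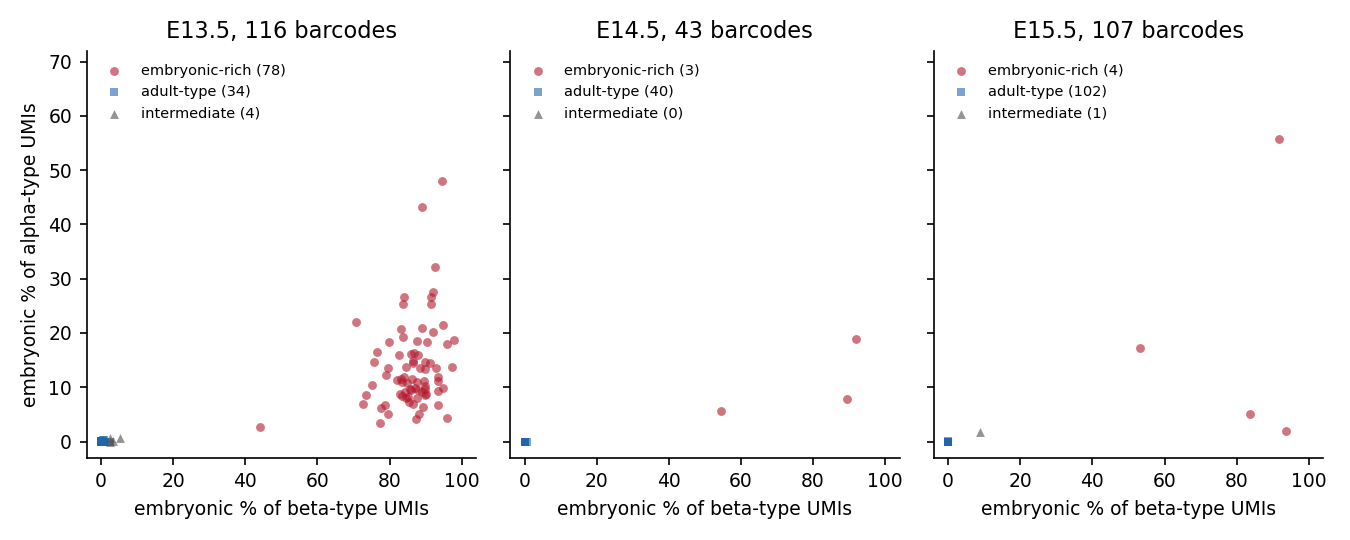
Each point is a barcode with at least 20% globin UMIs, placed by the embryonic percent of its beta-type UMIs (x axis) and alpha-type UMIs (y axis), in a panel per stage, with the number per class in the legend. At E13.5 the 78 embryonic-rich barcodes lie far to the right of the 34 adult-type ones, and in the later panels nearly all points sit at the origin.

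The classes were defined by the embryonic share, so the shares of embryonic genes are given as a description. Summed over the 78 embryonic-rich barcodes of E13.5, the globin UMIs were 34.5% Hba-a1, 31.8% Hbb-y, 19.1% Hba-a2, 8.67% Hba-x, 3.22% Hbb-bs, 2.40% Hbb-bt and 0.398% Hbb-bh1. The 34 adult-type barcodes had 42.5% Hbb-bs, 26.5% Hba-a1, 21.1% Hba-a2 and 9.85% Hbb-bt, and the embryonic genes together 0.0636%. An embryonic-rich barcode thus paired embryonic beta chains with mainly adult alpha chains.

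Hbb-y was present in all 78 embryonic-rich barcodes and outnumbered the adult beta UMIs in 77 of them. It made up a median of 86.0% of a barcode's beta-type UMIs, from 42.2% to 97.3%. Hba-x was also in all 78, at a median of 11.5% of alpha-type UMIs, from 2.75% to 48.0%. The barcode with the highest embryonic share, 67.1%, held 166 Hba-x, 214 Hbb-y and 14 Hbb-bh1 UMIs beside 128 Hba-a1, 52 Hba-a2, 10 Hbb-bs and 3 Hbb-bt. The middle 50% of barcodes lay between 8.72% and 16.5% for Hba-x and between 82.4% and 89.5% for Hbb-y.

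Hbb-bh1 was found in 56 of the 78 embryonic-rich barcodes and reached 5 UMIs in 28. Its share of beta-type UMIs had a median of 0.571% and a highest value of 8.53%. In 2 of the 4 intermediate barcodes it outnumbered Hbb-y, with 37 Hbb-bh1 against 2 Hbb-y UMIs in one and 10 against 1 in the other. Both were otherwise adult in makeup, with 891 and 369 Hbb-bs UMIs. Among adult-type barcodes of E13.5 Hbb-bh1 was found in 2 of 34.

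The split within the adult pairs was not used to define the classes. Hbb-bt made up 42.7% of adult beta UMIs in the embryonic-rich barcodes of E13.5 (41.6 to 43.7) and 18.8% in the adult-type ones (18.4 to 19.3). Over barcodes the embryonic-rich values ran from 0% to 100% with quartiles of 28.6% and 58.9%, on few adult beta UMIs each, and the adult-type values from 10.1% to 26.8%. Hbb-bt outnumbered Hbb-bs in 31 of 78 embryonic-rich and 0 of 34 adult-type barcodes. At the later stages the adult-type values were 16.5% (16.1 to 16.9) and then 15.6% (15.4 to 15.8). Embryonic-rich barcodes with at least 500 genes had 48.3% (46.8 to 49.9) and those with fewer genes 36.6% (35.1 to 38.1), so the value moved with the number of other genes in the barcode.

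Hba-a1 made up 64.4% of adult alpha UMIs in the embryonic-rich barcodes of E13.5 (64.0 to 64.7), with quartiles of 62.4% and 66.4% over barcodes. In adult-type barcodes it made up 55.7% (55.1 to 56.3), with quartiles of 54.4% and 57.0%, so the middle parts of both distributions were apart although their ranges (51.3 to 76.0% and 52.4 to 60.9%) overlapped. The adult-type value was 55.6% (55.0 to 56.1) at E14.5 and 55.4% (55.1 to 55.6) a day later. The few later embryonic-rich barcodes had 65.4% (62.1 to 68.5) and 69.4% (67.3 to 71.5). All these values share the uncertain split between near-identical copies.

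The ratio of alpha-type to beta-type UMIs also differed between the classes at E13.5. It was 1.65 over the embryonic-rich barcodes (median 1.53, quartiles 1.38 and 1.68) and 0.907 over the adult-type ones (median 0.862, quartiles 0.741 and 1.06). Adult-type barcodes had 1.14 at both later stages, above those of E13.5, and the later embryonic-rich ones had 2.44 and 4.14.

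The embryonic-rich barcodes of the later stages were few enough to give singly. At E14.5 the first held 144 Hbb-y and 59 Hba-x UMIs beside 11 Hbb-bs, within 1084 genes and 2185 UMIs. The other two held 85 Hbb-y UMIs each with 27 and 19 Hba-x, in 208 and 211 genes. All 3 had more Hbb-y than adult beta UMIs.

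At E15.5 the first held 881 Hba-x and 414 Hbb-y UMIs beside 516 Hba-a1, 183 Hba-a2, 22 Hbb-bs, 16 Hbb-bt and 4 Hbb-bh1, so Hba-x made up 55.8% of its alpha-type UMIs. The second had 179 Hbb-y and 9 Hba-x UMIs, the third 75 Hba-x and 8 Hbb-y, and the fourth 41 Hbb-y and 24 Hba-x. Hba-x outnumbered Hbb-y in 2 of these 4 barcodes and in 0 of the 78 at E13.5. They had 84 to 187 genes each.

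A check of the label red cell was made with genes other than globins. Clustering without the globin genes gave 1 erythroid-like cluster of 183 barcodes (68, 33 and 82 by stage), led by Alas2, the first enzyme of haem synthesis in red cells. Of these, 180 lay in the red-cell range, out of 266 such barcodes. The cluster held 45.2%, 48.9% and 70.5% of the globin UMIs of the 3 libraries. It took 35 of the 78 embryonic-rich and 29 of the 34 adult-type barcodes at E13.5, and 0 of the 4 embryonic-rich ones at E15.5. Those 4 clustered with barcodes named neuronal-like. In their 954 non-globin UMIs 2 of 14 erythroid markers had 3 UMIs, 2 of 10 mesenchymal markers had 2 UMIs in 1 barcode, and 0 of 8 neuronal markers had any, which is too few to check the name. At E13.5, 49 red-cell-range barcodes lay outside the cluster, 33 of them in the neuronal-like class, and the median embryonic-rich barcode with at least 500 genes held 35.4% globin.

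The 14 erythroid markers that are not globins gave 797 CPM of non-globin UMIs in the embryonic-rich barcodes of E13.5 and 6595 CPM in the adult-type ones, with 13 and 9 markers detected. Embryonic-rich barcodes with at least 500 genes had 503 CPM and those with fewer genes 2566. Klf1 was at 0 in both, and the low range (barcodes under 1% globin) had 20.9 CPM. Markers of neurons (8 genes) gave 2174 CPM in the embryonic-rich, 2089 CPM in the adult-type and 2632 CPM in the low range of that library. They gave 2421 CPM in embryonic-rich barcodes with at least 500 genes and 687 CPM in those with fewer. Other lists were higher in the embryonic-rich than the adult-type class: mesenchymal markers gave 646 against 183 CPM (99 and 5 UMIs), chondrogenic ones 222 against 73.3 (34 and 2) and osteogenic ones 78.3 against 0 (12 and 0). Epithelial markers gave 52.2 against 147 (8 and 4 UMIs) and neural progenitor markers 424 against 513 (65 and 14). Neuronal markers were thus close between the classes, while these other lists differed in both directions, on 0 to 14 adult-type UMIs. The part of RNA of other cells in the difference of erythroid markers was not tested. No doublet caller was run.

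Most of the other red-cell genes that could be read were higher in the red-cell range as well. Levels in CPM of non-globin UMIs were averaged over the 3 libraries and compared with the low range, for genes with at least 10 UMIs in the red-cell range. Over 5151 genes, 5.67% were at least 2-fold higher and 4.45% at least 2-fold lower. That filter is passed through the group where red-cell genes are high, so the counts below describe the genes that could be read and support nothing: 8 of 11 haem synthesis, 12 of 16 membrane, 12 of 14 maturation, 2 of 9 erythroid regulator and 6 of 8 switching genes.

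Of the 8 haem synthesis genes, 7 were higher and 0 lower, with a median ratio of 5.01. Alas2 stood at 1672 CPM against 3.53, Slc25a37, the mitochondrial iron importer, at 1926 against 19.0, and Fech, which inserts iron into haem, at 825 against 25.9. Alad, the next enzyme of haem synthesis after Alas2, was 3.81-fold higher. Tmem14c, a porphyrin transporter, had a ratio of 0.595 and did not pass the 2-fold limit. Of its 24 UMIs in the red-cell range 23 were at E13.5, where it stood at 126 CPM against 74.6 in the low range. Its mean ratio is therefore set by the near absence of UMIs in the shallower later libraries.

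Of the 12 membrane and skeleton genes, 11 were higher and 0 lower. Slc4a1, the band 3 anion exchanger, stood at 364 CPM against 0.251, and Epb42 had 17 UMIs against 2 in the low range. The lowest ratios were those of the skeleton genes Ank1 (3.28) and Add2 (1.40), and Add2 did not pass.

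Of the 12 maturation and metabolism genes, 11 were higher and 0 lower. Trim10 had 34 UMIs against 8 (ratio 437), Ube2l6 stood at 660 CPM against 5.66, and Car2, a carbonic anhydrase, was 78.7-fold higher. Cat, the catalase gene, was 6.07-fold higher and Xpo7, an exportin, had a ratio of 1.92.

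Among erythroid regulators only 2 could be read: Tal1 was 18.2-fold higher and Ldb1 had a ratio of 0.888. Of the 20 Tal1 UMIs in the red-cell range 18 were at E13.5 and 0 at E14.5. Klf1, an activator of adult beta globin, had 2 UMIs in the red-cell range. Of 6 regulators known from globin switching 0 were higher and 0 lower, with ratios of 1.38 (Zbtb7a), 1.04 (Nfix), 0.960 (Nfia), 0.656 (Lin28b) and 0.514 (Sox6). Bcl11a, a repressor of embryonic globins in definitive cells, had a ratio of 0.686, with 44 of its 51 red-cell-range UMIs at E13.5. Taking only barcodes with at least 50% globin turned these counts, an alternative chosen after seeing the data: 5 of the 6 were then lower (Bcl11a 0.200, Sox6 0.220, Lin28b 0.232, Nfia 0.278 and Nfix 0.353, on 1 to 32 UMIs each), and so was Ldb1 (0.417, 2 UMIs). Of all 5151 genes 56.7% were 2-fold lower and 8.39% higher there, with a median ratio of 0.423. Most of these regulators are also expressed in other tissues, and the source of their RNA in these barcodes was not tested. Both theta-globin genes were higher, Hbq1a at 68.4 CPM against 0.186 and Hbq1b at 25.5 against 0.238.

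Of the 10 genes most like the globins, by the highest ratio of the red-cell range to the low range over the 3 libraries with at least 1 UMI in each, 8 were Slc4a1, Epb42, Alas2, Trim10, Kel, Hbq1a, Gm867 and Tspo2. Their ratios ran from 308 (Tspo2) to 1451 (Slc4a1) and rested on 2 to 69 UMIs in the low range.

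Within E13.5 the embryonic-rich and adult-type barcodes also differed in red-cell genes other than globins. Only barcodes with at least 50% globin were compared, 51 and 26 of them, which left 35624 and 10618 non-globin UMIs. Of 22 listed genes with at least 10 UMIs over both classes, 13 were at least 2-fold lower and 2 higher in the embryonic-rich class, beside 24.8% lower and 18.5% higher among all 632 genes. The median fold was 0.315 over the listed genes and 0.848 over all. A gene can pass that minimum through the class where it is high, so these counts describe the genes that could be read.

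RNA of other cells was not spread evenly over these barcodes. In the embryonic-rich class 6 barcodes with 518 to 2554 genes held 15622 of the non-globin UMIs, and in the adult-type class 1 with 1548 genes held 3164. Neuronal markers gave 1712 against 1130 CPM (61 and 12 UMIs) and mesenchymal ones 281 against 188 (10 and 2). In barcodes with fewer than 500 genes, an alternative chosen after seeing the data, neuronal markers gave 550 against 805 CPM (11 and 6 UMIs), and mesenchymal ones had 1 UMI against 2. There 10 of 16 listed genes were 2-fold lower and 0 higher, beside 24.4% and 16.2% of all 328 genes, with median folds of 0.238 and 0.897. Of the same 22 genes, with no minimum applied again, 13 were lower and 2 higher there. The higher ones, Kel (8 UMIs against 1) and Hbq1b (9 against 0), had fallen below 10 UMIs. So had Rhd (2 against 7), Xpo7 (2 against 7) and Sox6 (1 against 2) among the lower ones, and the interval of Sox6 includes 1. Alas2 stood at 0.142-fold (0.0690 to 0.277) and Slc25a37 at 0.0621-fold (0.0214 to 0.149) in barcodes with fewer than 500 genes.

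Lower genes included Alas2 with 18 UMIs against 37 (0.145-fold, 0.0777 to 0.261) and Slc25a37 with 7 against 36 (0.0580-fold, 0.0218 to 0.132). Slc4a1 had 7 against 13 (0.160-fold, 0.0542 to 0.433), Car2 39 against 63 (0.185-fold, 0.120 to 0.279) and Bnip3l, a mitophagy receptor, 24 against 35 (0.204-fold, 0.116 to 0.354). These 5 genes were chosen after their values were seen, and Slc25a37 and Slc4a1 reached the minimum only through the adult-type class, where they are high.

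The ferritin chains went the other way without reaching 2-fold. Fth1 had 1667 UMIs against 310 (1.60-fold, 1.42 to 1.82) and Ftl1 623 against 135 (1.38-fold, 1.14 to 1.67). Blvrb, biliverdin reductase B, stood at 0.842-fold (0.564 to 1.28) and Prdx2, an abundant red-cell peroxidase, at 0.549-fold (0.445 to 0.680). Kel, with 11 UMIs against 1 (3.28-fold, 0.477 to 141), and Hbq1b, with 10 against 0, passed the minimum only through the embryonic-rich class and are given as values, since the interval of Kel includes 1. Fth1 alone stood at 46794 CPM of non-globin UMIs in the embryonic-rich class and 29196 in the adult-type.

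Barcodes under 1% globin, the low range, held 8.54%, 14.6% and 8.77% of the globin UMIs, and those of 1 to 20% held 14.2%, 24.3% and 6.02%. Of low-range barcodes, each thinned to 500 UMIs, 64.0% (62.5 to 65.5), 74.0% (71.9 to 76.0) and 76.5% (74.8 to 78.1) held a globin UMI. None was too shallow to thin. Without thinning the shares were 91.2%, 92.5% and 94.0%, at median totals of 1779, 1605 and 1765 UMIs. Free RNA and expression by the cells themselves cannot be told apart in these shares.

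Among named classes with at least 10 barcodes, globin UMIs per 10000 ran from 11.2 (endothelial-like, 10 barcodes) to 25.8 (glial-like) over 10 classes at E13.5, and 22.0 over all. At E14.5 they ran from 24.4 (pituitary-like) to 36.3 (mesenchymal-like) over 9 classes, and 34.2 over all. At E15.5 they ran from 25.9 (epithelial-like) to 63.7 (neural progenitor-like, 12 barcodes) over 10 classes, and 34.1 over all. The ratio of highest to lowest was 2.31, 1.49 and 2.46 within this range, which is itself limited to under 1%.

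The embryonic share of this low-level RNA was set beside that of the red-cell range. At E13.5 it was 24.1% (23.5 to 24.6) against 28.9% (28.7 to 29.1), and the erythroid-like cluster had 23.2% (22.9 to 23.4). At E14.5 it was 2.16% (1.93 to 2.40) against 0.676% (0.614 to 0.743), with 0.213% in the erythroid-like cluster. At E15.5 it was 0.154% (0.110 to 0.211) against 0.710% (0.677 to 0.744), with 0.0527% in the cluster. That cluster took 35 of 78, 1 of 3 and 0 of 4 embryonic-rich barcodes in stage order, so its share depends on which barcodes fell in it. The low range thus held a smaller embryonic share than the red-cell range in the first library and a larger one in the second, and at all 3 stages a larger one than the erythroid-like cluster. The difference in the last library rests on 1 barcode with 1299 of the 1742 embryonic UMIs of its red-cell range: without it the share there was 0.182% (0.165 to 0.200), within the interval of the low range.

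At E14.5 the red-cell-range share was 0.357% (0.312 to 0.406) without its barcode with the most embryonic UMIs, still under that of the low range. In the low range, Hbb-y had 4346, 220 and 17 UMIs, in 2079, 147 and 13 barcodes. Hbb-bh1 had 84 UMIs in 82 barcodes, then 1 and 0 UMIs. The low-range Hbb-bh1 UMIs of E13.5 thus came to about 1 in each barcode that had one. The limit of 1% globin leaves room for little more of so scarce a gene. Of all 807 Hbb-bh1 UMIs of that library, 628 lay in the red-cell range.

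**Figure D4:**
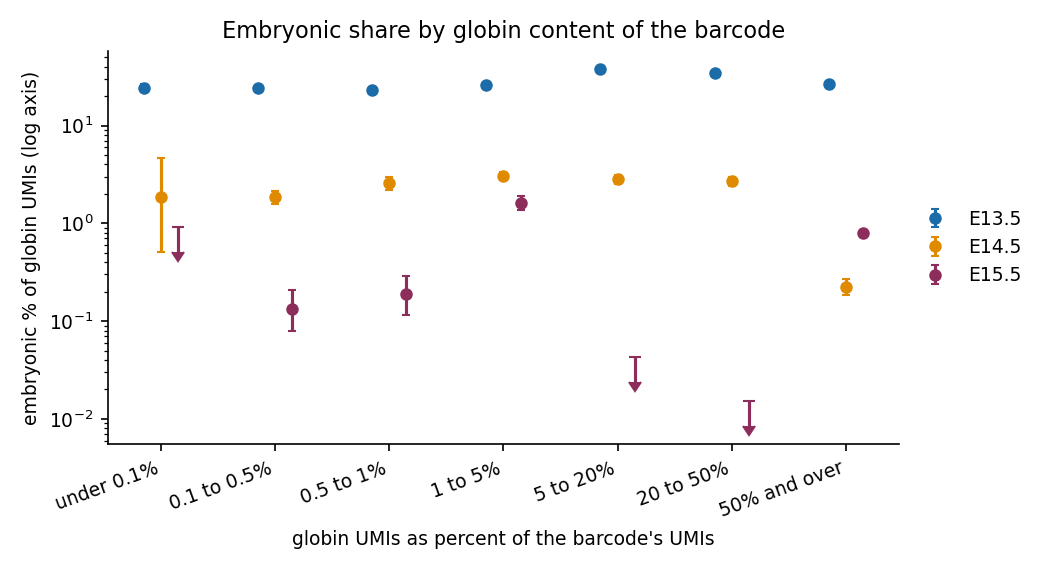
Embryonic percent of globin UMIs (log axis) in each bin of globin content, with exact 95% intervals, and arrows for the upper limit where no embryonic UMI was counted. The E13.5 values lie between 22.9% and 37.6% in every bin, while E15.5 goes from 0 UMIs in 3 bins to 1.62% in the bin of 1 to 5%.

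Barcodes with 1 to 20% globin (254, 236 and 302) had higher embryonic shares than the low range at all stages, 34.4%, 2.94% and 0.819%. At E13.5, 74 of them held at least 10 embryonic UMIs, and 71 of those 74 had at least 10% of their globin UMIs embryonic. At E14.5 6 of 16 such barcodes, and at E15.5 2 of 2, had that share. The E13.5 barcode with the most had 1717 embryonic UMIs among 45648 UMIs and 7883 genes. At E15.5, 88 of the 142 embryonic UMIs came from 1 barcode.

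Among cell classes in the low range, the embryonic share at E13.5 ran from 12.3% (muscle-like, 19 barcodes) to 27.6% (chondrogenic-like), and 8 of 10 intervals held the value of the whole low range. At E15.5 9 of 10 did, but on 0 to 10 embryonic UMIs per class, so the intervals are wide and this count shows little. The exception there was neuronal-like (0.485%), with all 10 of its embryonic UMIs in 1 barcode. At E14.5 only 4 of 9 intervals held the value of the whole low range. The shares ran from 0.444% in endothelial-like (0.0539 to 1.60) to 4.78% in epithelial-like barcodes (3.73 to 6.01). In the epithelial-like class 38 of the 68 embryonic UMIs came from 1 barcode, and the share without it was 2.34%. The share in mesenchymal-like barcodes there was 1.66% (1.37 to 2.00).

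**Figure D5:**
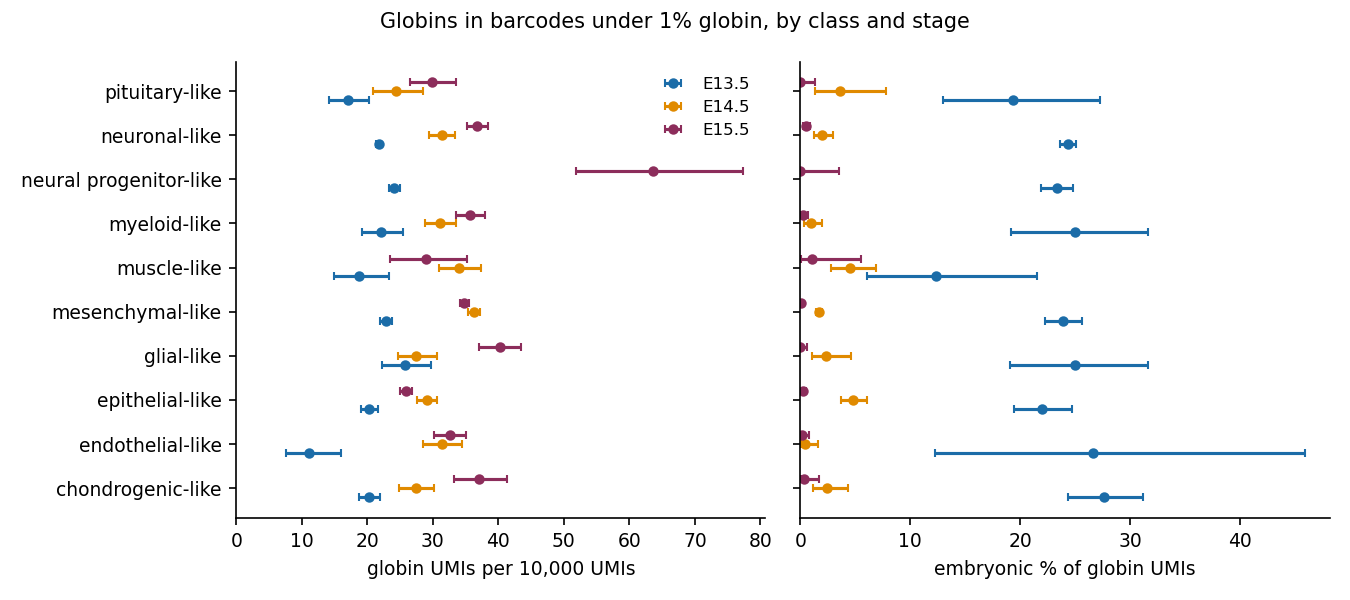
Globin UMIs per 10000 UMIs (left) and embryonic percent of globin UMIs (right) in barcodes under 1% globin, by cell class and stage, with exact 95% intervals. The embryonic share at E13.5 lies between 12.3% and 27.6% in all classes, above the later values of the same class.

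The adult pairs can be read in the low range as well. Hba-a1 made up 60.4%, 56.9% and 55.3% of adult alpha UMIs there, beside 62.1%, 55.8% and 55.6% in the red-cell range. Hbb-bt made up 24.1%, 20.0% and 16.2% of adult beta UMIs, beside 23.7%, 16.5% and 15.6%. Of these 6 pairs of values the widest gap was that of Hbb-bt at E14.5.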

How the data were processed

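The authors deposited raw UMI counts per gene and barcode, made with Cell Ranger 6.1.2 on mm10 per the submitters' processing notes. The smallest barcode total was 500 UMIs. How reads matching several genes were counted is not given in the sources used here. All barcodes were kept and no doublet caller was run. UMIs of the 7 globins were summed by library, range and class, with exact Clopper-Pearson (shares) and Poisson (levels) 95% intervals. Counts of other genes were scaled to non-globin UMIs. For cell classes, counts without globins were scaled to 10000, 2000 variable genes were chosen with stage as batch, and Leiden clusters at resolution 1 were drawn from 30 components with 15 neighbours (scanpy 1.11.5, igraph 0.11.9). A class name needed at least 3 listed markers. Thinning drew 500 UMIs per barcode (seed 1). Stages were compared as log2 of CPM plus 1 over genes of at least 5 CPM, with 2-fold as the limit. That step was tested on simulated library totals with counting error alone, which cannot show how a few barcodes move a ratio. Alternatives changed the limits of the ranges, the barcodes kept, the scaling and the pseudocount. The members, gene lists and marker lists were chosen with earlier results of these data known. Named genes were the globins, the 3 highest and 2 lowest ratios of each list, a few set genes, and the 10 genes most like the globins; further genes in the comparison of embryonic-rich with adult-type barcodes were chosen after their values were seen. Ahsp and Hbb-bh0 were not analysed here. Some genes that this rule names are not reported here.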

Additional observations from a re-analysis of the deposited data

How the results depend on the processing

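No paired analysis was possible because each stage has 1 library and nothing was tested. Of 287 alternative values, 199 moved by less than their counting interval (or 1.5 times for a count or ratio), 88 moved further and 0 changed the sign of a called value. Values follow the order of the stages. The globin share of all UMIs was 1.36%, 0.987% and 0.887% in barcodes with at least 500 genes, 2.20%, 1.87% and 3.23% without the barcode with the most globin UMIs, and 2.35%, 2.05% and 3.66% in barcodes with at least 1000 UMIs. The embryonic share of globin UMIs was 28.6%, 2.10% and 1.20% as a mean over red-cell-range barcodes and 32.6%, 2.49% and 0.260% in barcodes of at least 500 genes. It was 54.5%, 2.19% and 0.576% for beta-type chains, 10.7%, 0.830% and 0.748% for alpha-type chains, and 28.5%, 1.35% and 0.584% per transcript length. Without the barcode with the most embryonic UMIs it was 28.7%, 1.25% and 0.218%, and without the one with the most globin UMIs it was 28.7% in the first and 0.718% in the last library. The red-cell range held 39, 9 and 15 barcodes of at least 500 genes, and from 5% globin it held 83 at E14.5. Its part of the globin UMIs was 87.6%, 72.3% and 88.2% from 5% globin and 52.4%, 49.9% and 76.8% from 50%. The share of low-range barcodes with a globin UMI was 91.2%, 92.5% and 94.0% without thinning and 65.9%, 76.6% and 78.6% for barcodes under 5% globin. The embryonic share there was 1.84% (under 0.5% globin) and 2.58% (under 5%) at E14.5 and 0.532% (under 5%) at E15.5. Embryonic-rich barcodes numbered 51 and 1 at the first 2 stages from 50% globin, and 2 at E15.5 with a limit of 20% embryonic. Between E13.5 and E14.5, 2 globins were 2-fold higher in barcodes under 1% globin and 0 without the 2 barcodes with the most globin UMIs. Between E14.5 and E15.5, 2 were 2-fold lower in barcodes under 1% globin, and 2 without the barcode with the most embryonic UMIs, left out of each library or of E15.5 alone. The embryonic share of the red-cell range was 28.2%, 0.357% and 0.182% without its most embryonic barcode. From 50% globin, 5 switching and 1 erythroid regulator gene were 2-fold lower than in the low range, against 0 and 0. Among barcodes under 500 genes, 0 of the 16 listed genes still at 10 UMIs were 2-fold higher in the embryonic-rich than the adult-type class, against 2 of 22, and on the same 22 genes 2 were. Leaving out the 2 barcodes with the most globin UMIs, the one with the most embryonic UMIs or those shared by libraries, reading gene lists from 50% globin or under 500 genes, scaling by length, and the limits of the embryonic classes with their alternatives were chosen after seeing the data. The cause of these shifts was not tested. Pooled embryos and a single library for each stage limit every comparison, and depth limits Hbb-bh1 after E13.5.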
